A study of Mus musculus with 20 samples.

Results

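Dnah6, Anxa4 and A430010J10Rik are 3 genes of mouse chromosome 6, between 67 and 87 Mb of GRCm38, whose mRNA level differed with APOE genotype in the hippocampus. The mouse Apoe gene, which the human allele replaced, lies on chromosome 7. The 3 genes were chosen from 33119 genes in the count table, 21724 of which passed the filter on low counts, because their counts differed between hAPOE4 and hAPOE3 mice. The genotype differences of the 3 genes are therefore given as descriptions, without a test. All 3 passed the filter.

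Bulk RNA-seq was run on the hippocampus of 20 mice aged 16 months, in 4 groups of 5 mice that cross 2 genotypes, hAPOE3 and hAPOE4, with sex. All mice were homozygous for a human APOE allele put in place of the mouse gene, on a C57BL/6 background, and no group kept mouse Apoe. The sources used here do not say whether the hAPOE3 and hAPOE4 mice shared parents, so the APOE allele and other inherited differences between the lines cannot be told apart. Each library held between 35778879 and 52520279 estimated counts. Levels are given as CPM, the count scaled to a common library size by TMM, and all 3 genes had at least 120 counts in every mouse.

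Dnah6 encodes a heavy chain of axonemal dynein, the motor that bends motile cilia. In the brain motile cilia are carried by the ependymal cells that line the ventricles. Anxa4 encodes annexin A4, one of a family of proteins that bind membrane phospholipids in the presence of calcium. A430010J10Rik is annotated as a non-coding transcript.

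Libraries differed in their content beyond the 4 groups. The 8 hippocampal neuron markers were detected in every group and summed to between 1860 and 3060 CPM. The 13 choroid plexus markers summed to between 95.5 and 6760 CPM, with group medians of 139 CPM in hAPOE3 males, 178.2 CPM in hAPOE4 males, 2752 CPM in hAPOE3 females and 4806 CPM in hAPOE4 females. No marker of choroid plexus, microglia, endothelium, astrocytes, oligodendrocytes or hippocampal neurons was called by genotype in either sex by edgeR, DESeq2 or limma. By edgeR, 0.621% of all genes were called in males and 0.667% in females, so 0 calls among so few markers is near these shares. Of the 13 choroid plexus markers, 12 in males and 13 in females had a log2 fold change above 0. Their medians were 0.37 and 0.89, with standard errors of 0.56 to 1.29. An unadjusted edgeR p under 0.05 was seen for 2 microglial markers in males and 1 endothelial marker in females. No share of all genes at that threshold is given. The 12 oocyte markers summed to between 56.8 and 113 CPM in 4 of the 5 hAPOE4 males. They summed to between 1.85 and 4.22 CPM in the other 16 mice, with the lowest value in hAPOE4 male 1. This mouse stood apart from its group but was near the other groups in these markers. Values that it could move are given also without it. For hAPOE4 males such values rest on the 4 mice with high oocyte markers.

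Dnah6 (ENSMUSG00000052861.13) occupies 204.0 kb on the minus strand, chr6:73017606-73221651, and Anxa4 (ENSMUSG00000029994.17) occupies 56.7 kb on the same strand, chr6:86736840-86793584. A430010J10Rik (ENSMUSG00000097603.3) occupies 52.8 kb on the plus strand, chr6:67115673-67168426. Dnah6 has 3 annotated coding transcripts of 12435 to 12652 bases with 76 or 77 exons, and the longest Anxa4 coding transcript has 2030 bases. A promoter sequence was found for 2 of the 3 genes in the RefSeq table of GRCm38.p6.

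The 250 bases before the start of these 2 genes are printed because both genes were higher in hAPOE4 mice. Each reads 5′ to 3′ on the minus strand, Dnah6 at chr6:73221632-73221881 and Anxa4 at chr6:86793585-86793834. Capitals mark matches to 3 motifs that were chosen after these sequences were seen.
Dnah6: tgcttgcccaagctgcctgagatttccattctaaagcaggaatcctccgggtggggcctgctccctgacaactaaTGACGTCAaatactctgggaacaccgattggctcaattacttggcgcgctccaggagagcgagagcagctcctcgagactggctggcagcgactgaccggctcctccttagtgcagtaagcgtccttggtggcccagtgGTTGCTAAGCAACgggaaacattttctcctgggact
Anxa4: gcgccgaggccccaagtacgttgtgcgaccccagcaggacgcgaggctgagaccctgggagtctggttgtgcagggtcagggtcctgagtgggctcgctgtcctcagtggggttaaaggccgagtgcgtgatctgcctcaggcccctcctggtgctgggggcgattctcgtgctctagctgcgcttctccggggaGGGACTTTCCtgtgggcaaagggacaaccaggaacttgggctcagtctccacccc

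The Dnah6 window held GTTGCNNNGCAAC, the arms of an X-box, from base -36 to base -24 before the start. X-boxes are bound by RFX factors, which are known for their role in ciliary genes. These letters were found in 0.207% of 32851 promoter windows of the same length, on either strand. The Dnah6 window also held TGACGTCA, the cAMP response element, from base -175 to base -168, and 1.55% of the windows held it. The Anxa4 window held GGGACTTTCC, a kappa B motif, from base -55 to base -46, and 0.14% of the windows held it. The 3 motifs did not overlap each other in these windows, and a match is a description of the letters only.

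Dnah6 exhibited higher levels in hAPOE4 mice of both sexes. The 5 hAPOE3 males measured 4.45, 6.19, 4.06, 4.27 and 6.04 CPM, and the 5 hAPOE4 males measured 13.1, 13.9, 15.05, 14.4 and 9.48 CPM. The 2 groups of males did not overlap, as was the case, in this direction, for 0.557% of all genes tested. The 5 hAPOE3 females measured 13.4, 3.02, 4.797, 4.51 and 6.45 CPM, and the 5 hAPOE4 females measured 17.0, 24.2, 16.6, 19.6 and 12.4 CPM. The females overlapped through hAPOE3 female 1, whose level was above that of hAPOE4 female 5. On the log2 scale males differed by 1.40 and females by 1.48, each with a standard error of 0.29, a 2.63-fold and a 2.79-fold difference. Without hAPOE3 female 1 the difference in females was 1.94, and without hAPOE4 male 1 the difference in males was 1.40.

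The order of the group means of Dnah6 was hAPOE3 males at 5.00 ± 1.03 CPM, hAPOE3 females at 6.43 ± 4.06 CPM, hAPOE4 males at 13.2 ± 2.19 CPM and hAPOE4 females at 18.0 ± 4.33 CPM (SD, n = 5). Each group overlapped its neighbour in this order. Females and males did not differ beyond the spread between mice in either genotype. In hAPOE3 mice the log2 difference of females from males was 0.36, with a 95% interval of -0.20 to 0.92 (edgeR adjusted p = 0.809). It was -0.09 without hAPOE3 female 1, a change of sign. In hAPOE4 mice it was 0.45, with an interval of -0.10 to 0.99 (edgeR adjusted p = 1.0). Dnah6 was not among the 9 genes called between the sexes in hAPOE3 mice, 0.0414% of those tested, or the 95 genes called in hAPOE4 mice, 0.437%.

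Anxa4 exhibited higher levels in every hAPOE4 mouse than in any hAPOE3 mouse. The hAPOE3 males measured 6.83, 5.69, 5.50, 8.155 and 6.46 CPM, and the hAPOE3 females measured 8.87, 7.57, 6.88, 7.86 and 7.58 CPM. The hAPOE4 males measured 13.9, 13.8, 11.8, 11.9 and 10.6 CPM. The hAPOE4 females were higher still on average, at 18.4, 17.9, 19.96, 16.0 and 12.6 CPM. A separation of all 10 hAPOE4 mice above all 10 hAPOE3 mice was seen in 0.0967% of the genes tested, 21 genes in all. On the log2 scale males differed by 0.93 and females by 1.13, each with a standard error of 0.13, a 1.90-fold and a 2.19-fold difference. Without hAPOE4 male 1 the difference in males was 0.88.

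The group means of Anxa4 ran from hAPOE3 males at 6.53 ± 1.06 CPM, through hAPOE3 females at 7.75 ± 0.723 CPM and hAPOE4 males at 12.4 ± 1.44 CPM, to hAPOE4 females at 17.0 ± 2.84 CPM (SD, n = 5). The step between hAPOE3 females and hAPOE4 males was free of overlap, and the females and males of each genotype overlapped. Females exceeded males by 0.25 on the log2 scale in hAPOE3 mice, with a 95% interval of -0.01 to 0.51 (edgeR adjusted p = 0.805). In hAPOE4 mice the difference was 0.45, with an interval of 0.20 to 0.71, an unadjusted p of 0.00228 and an edgeR adjusted p of 0.259. The call changed when hAPOE4 female 5, the lowest of its group, was left out (0.54, edgeR adjusted p = 0.0391).

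**Figure D1:**
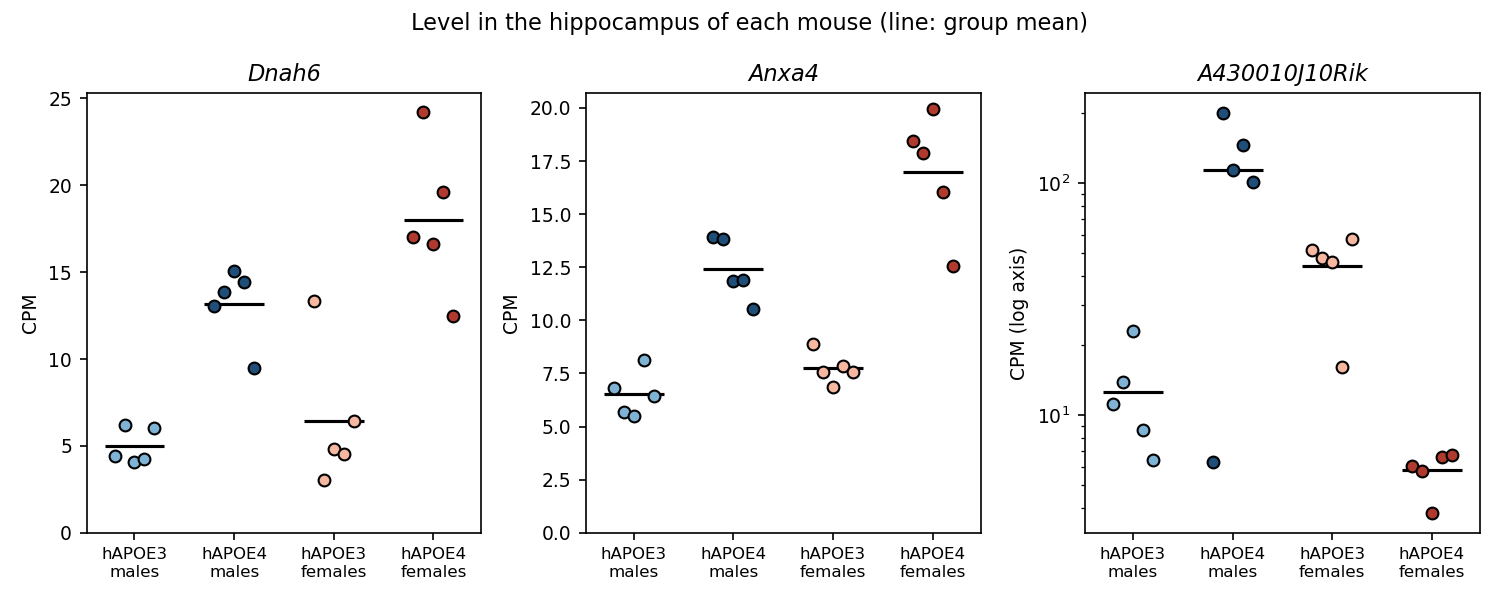
Level of Dnah6, Anxa4 and A430010J10Rik in CPM, on the vertical axis, in each of the 5 mice of the 4 groups; points are mice and lines are group means, and the axis of A430010J10Rik is logarithmic. All 10 hAPOE4 mice lie above all 10 hAPOE3 mice for Anxa4, hAPOE3 female 1 at 13.4 CPM lies among the hAPOE4 mice for Dnah6, and hAPOE4 male 1 at 6.29 CPM lies apart from the other 4 males of its group for A430010J10Rik.

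Dnah6 and Anxa4 were set beside the other genes of their families. Of the 15 axonemal dynein heavy chains, all tested, Dnah6 was the member chosen for its difference. None of the other 14 passed the threshold in either sex by edgeR, at a background of 0.621% of all genes called in males and 0.667% in females. Their log2 fold changes ran from -0.32 to 0.39 in males, with a median of 0.03, and from -0.26 to 0.76 in females, with a median of 0.09, beside medians of 0.00 over all genes. The highest in females was Dnah11, an outer-arm heavy chain, at 0.76 (standard error 0.38, edgeR adjusted p = 0.519). The lowest in males was Dnah7c at -0.32 (standard error 0.16, edgeR adjusted p = 0.557). Dnah7a, Dnah7b and Dnah7c are close copies of one another, and how reads were shared among them was not tested.

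The remaining parts of the ciliary motor did not pass the threshold either. None of the 17 other dynein subunits and assembly factors was called in males or females, beside 0.621% and 0.667% of all genes. Their median log2 fold changes were -0.04 and 0.16. Wdr78, an intermediate chain, had the smallest adjusted p in females, with a log2 fold change of 0.40 (edgeR adjusted p = 0.218). None of the 20 ependymal cilia genes was called, with medians of -0.07 in males and 0.15 in females. For lists of these sizes 0 calls is near the shares over all genes. At an unadjusted edgeR p under 0.05 there were 3 genes of the subunit and assembly list in females and 0 in males. They were Ccdc39 at -0.27, Ccdc40 at 0.35 and Wdr78 at 0.40, so they did not share a direction. At that threshold there were 0 other heavy chains and 0 ependymal genes in either sex. DESeq2 and limma called 0 of the genes in these lists other than Dnah6. The share of all genes at that unadjusted threshold is not given. Foxj1, the regulator of motile cilium formation, differed by 0.15 in males and 0.32 in females (edgeR adjusted p = 0.887 and 0.805). Fewer ciliated cells in a sample and less RNA in each of them cannot be told apart in bulk tissue.

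Among the 12 annexins, 10 were tested, and Anxa4 was the member chosen for its difference. None of the other 9 passed the threshold in either sex, beside 0.621% of all genes called in males and 0.667% in females. For so few genes 0 calls is near these shares. Their log2 fold changes ran from -0.12 to 0.41 in males and from -0.10 to 0.78 in females, with medians of -0.05 and 0.15. Anxa1, Anxa2 and Anxa8 had an unadjusted edgeR p under 0.05 in females, 0 did in males, and DESeq2 and limma called 0 of the 9. No share of all genes at that unadjusted threshold is given. Anxa2, which is found with S100A10 at the plasma membrane, had the smallest adjusted p of these 9 in females, at 0.59 (standard error 0.24, edgeR adjusted p = 0.395). In males it differed by 0.12 (standard error 0.24, edgeR adjusted p = 0.89). Anxa5, known for its binding to phosphatidylserine, differed by -0.05 in males and 0.15 in females.

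**Figure D2:**
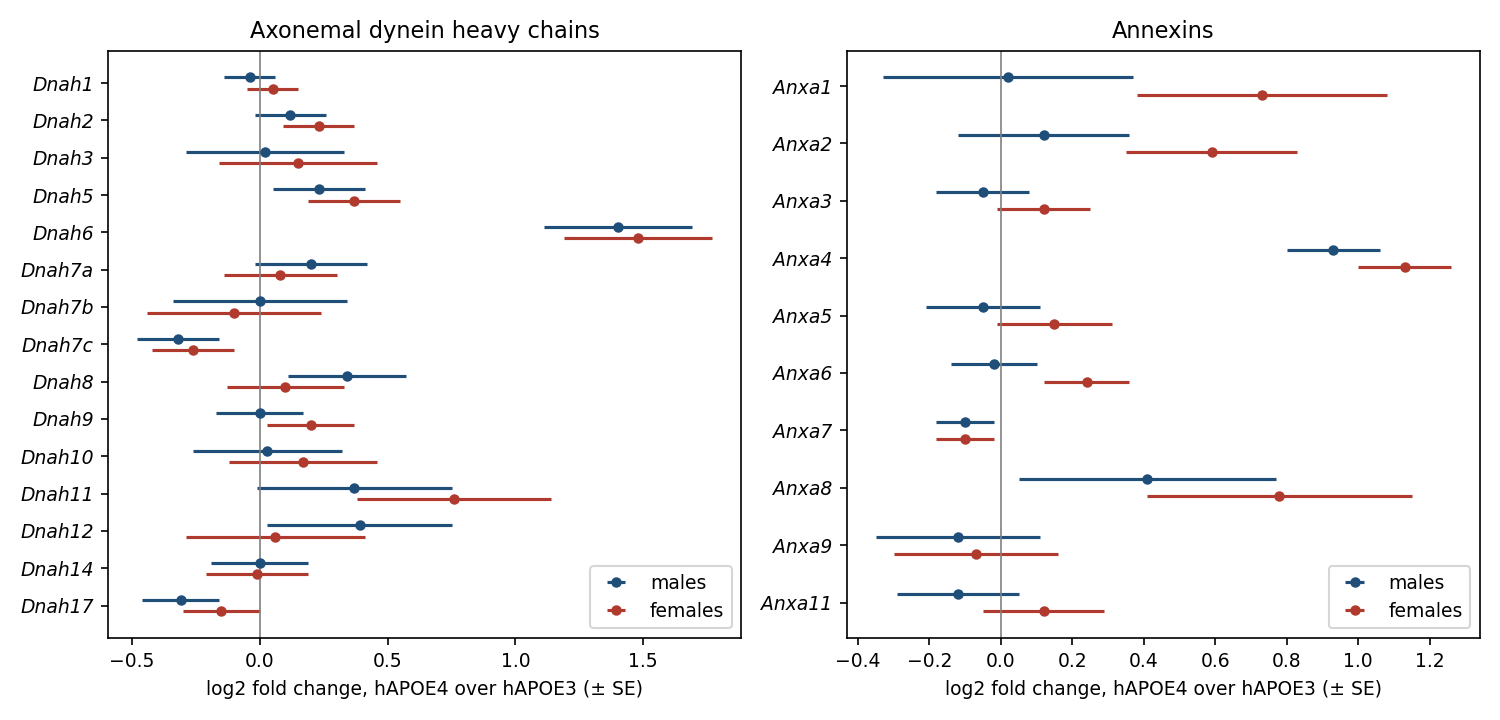
Log2 fold change of hAPOE4 over hAPOE3, on the horizontal axis, for the 15 axonemal dynein heavy chains and the 10 tested annexins, one row per gene; points are edgeR estimates from 5 mice against 5 in males (blue) and females (red) and bars are standard errors. Dnah6 stands at 1.40 and 1.48 while the other 14 heavy chains lie between -0.32 and 0.76, and Anxa4 stands at 0.93 and 1.13 while the other 9 annexins lie between -0.12 and 0.78.

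Within groups, the level of Dnah6 varied with ciliary genes. After the group means were subtracted, the 5 genes most like Dnah6 over the 20 mice, among 16096 genes, were Ak9, Ccdc162, Rgs22, Ak7 and Hydin, with Pearson correlations of 0.86, 0.84, 0.84, 0.83 and 0.79. Ak7 is an adenylate kinase of motile cilia and Hydin is a protein of their central apparatus. The correlation exceeded 0.5 for 10 of 19 ependymal cilia genes and 6 of 13 other heavy chains, beside 2.64% of all genes. The libraries differed in marker content and depth, so the correlations are a description, and their cause was not tested. The 5 least like it were Gm5577, Zfp469, Gm30504, Drosha and Gm21750, between -0.74 and -0.67.

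The score of the ependymal cilia genes, their mean log2 CPM centred over mice, ran from -0.83 to 0.65. It correlated with Dnah6 at 0.71 within groups. hAPOE3 female 1, the hAPOE3 mouse with the highest Dnah6, had a score of 0.42, and hAPOE3 female 5, with a score of 0.49, measured 6.45 CPM. hAPOE4 female 5 had the lowest score of its group, -0.42, and the lowest Dnah6. With this score as a covariate the genotype difference of Dnah6 was 1.43 in males and 1.40 in females. The part of ependymal content in the mouse-to-mouse variation was not tested beyond this.

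Anxa4 varied within groups with choroid plexus genes, among other genes. The score of the 13 choroid plexus markers correlated with Anxa4 at 0.54 over 20 mice and at 0.61 without hAPOE4 male 1, and 10 of the 13 markers exceeded 0.5, beside 1.75% of all genes. The Spearman correlation with this score was 0.43, and 0.49 without that mouse, and 0 of the markers were among the 50 genes most like Anxa4. Other scores correlated to a like degree. The annexin score stood at 0.52, and the oocyte score at -0.0 over 20 mice and 0.61 without hAPOE4 male 1. The 5 genes most like Anxa4 were Spag6l, Rsu1, Cog6, R3hcc1l and Aph1c, between 0.74 and 0.79. Only 1 of these 5 was among the first 5 when hAPOE4 male 1 was left out. The 5 least like it were Cbs, Gm36839, 2300009A05Rik, Acp7 and Ncs1, between -0.78 and -0.71.

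The choroid plexus score was low in both genotypes in some mice, so Anxa4 could be read at like scores. hAPOE3 female 3, with a score of -2.27, measured 6.88 CPM, and hAPOE4 female 5, with a score of -2.15, measured 12.6 CPM. With the score as a covariate the genotype difference of Anxa4 was 0.92 in males and 1.09 in females, and that of Dnah6 was 1.38 and 1.46. The difference between hAPOE4 females and males in Anxa4 was then 0.32 (edgeR adjusted p = 0.480). Within groups, Dnah6 and Anxa4 correlated with each other at 0.35 and with A430010J10Rik at 0.06 and -0.34.

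**Figure D3:**
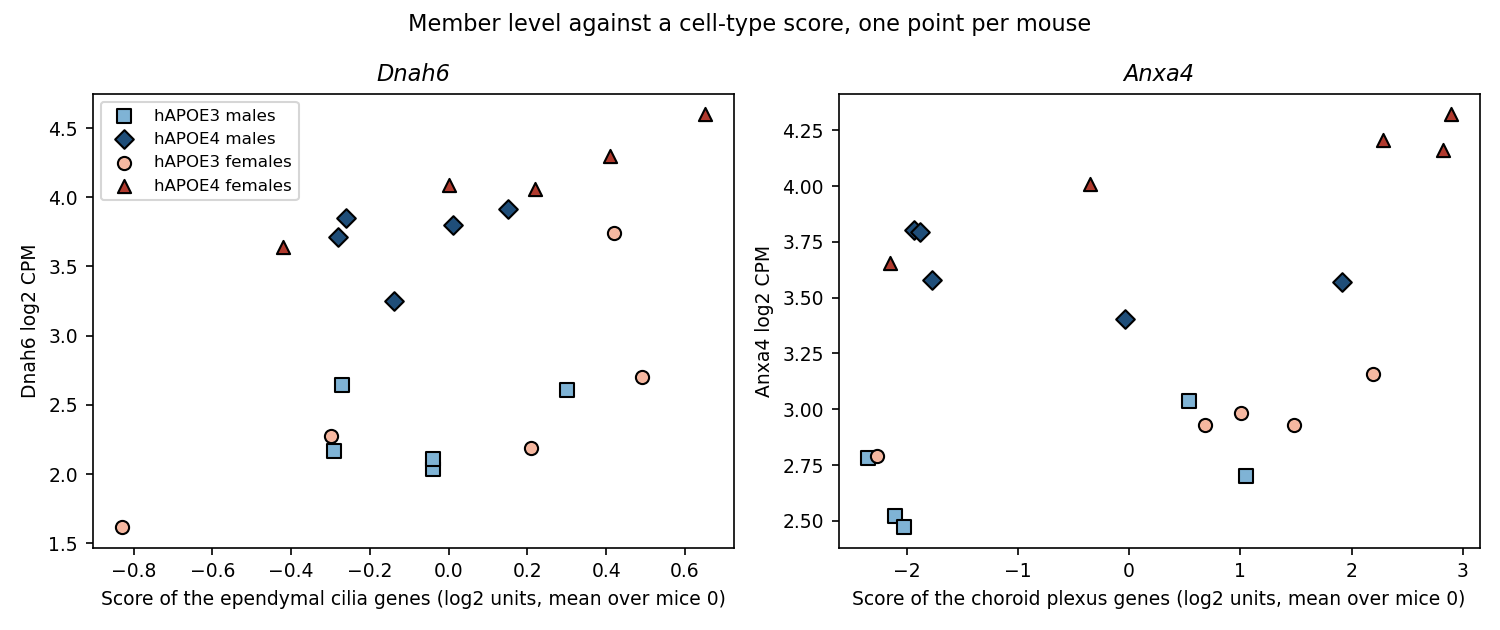
Log2 CPM of Dnah6 against the score of the 20 ependymal cilia genes and of Anxa4 against the score of the 13 choroid plexus genes; scores are mean log2 CPM centred over mice and each point is 1 of 20 mice. Anxa4 of hAPOE4 mice lies above that of hAPOE3 mice along the whole range of scores, and Dnah6 rises with the ependymal score within groups (correlation 0.71).

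A430010J10Rik differed between the genotypes in opposite directions in males and females. The hAPOE3 females measured 51.4, 47.8, 45.9, 16.2 and 57.7 CPM, and the hAPOE4 females measured 6.07, 5.775, 3.80, 6.63 and 6.71 CPM. All hAPOE4 females were below all hAPOE3 females, as was the case, in this direction, for 2.29% of genes. The hAPOE3 males measured 11.2, 13.9, 23.2, 8.62 and 6.41 CPM. Of the hAPOE4 males, mouse 1 measured 6.29 CPM and mice 2 to 5 measured 199.6, 114.3, 146.05 and 101.45 CPM. Mouse 1 was thus below all hAPOE3 males and the other 4 were above every other mouse of the study.

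On the log2 scale the genotype difference of A430010J10Rik was 3.17 ± 0.55 in males and -2.92 ± 0.56 in females (± standard error). Without hAPOE4 male 1 the difference in males was 3.47. The difference between these values was -6.09 (standard error 0.79), and -6.39 without that mouse. It is built from the contrasts that chose the gene and is given without a test. Over all genes the interaction of sex and APOE called 40, or 0.184%.

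The group means of A430010J10Rik were 5.80 ± 1.182 CPM in hAPOE4 females, 12.7 ± 6.51 CPM in hAPOE3 males, 43.8 ± 16.1 CPM in hAPOE3 females and 113.5 ± 70.9 CPM in hAPOE4 males (SD, n = 5). Without mouse 1 the hAPOE4 males averaged 140.3 ± 43.7 CPM (SD, n = 4). Each group overlapped its neighbour in this order, the last pair through mouse 1 alone. The log2 difference of females from males was -4.29 in hAPOE4 mice (standard error 0.59), and -4.60 without mouse 1, and it was 1.79 in hAPOE3 mice (standard error 0.53). These differences come from the same values that chose the gene and are also given without a test.

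The 4 hAPOE4 males with high A430010J10Rik were the 4 in which oocyte markers were detected well above the other mice. Gdf9, a growth factor of the oocyte, measured 13.1 to 24.2 CPM in these 4 mice, 0.794 CPM in hAPOE4 male 1 and 0.632 to 1.32 CPM in the 15 mice of the other groups. Zar1, a maternal RNA-binding protein, measured 2.73 to 5.71 CPM in the 4 mice, 0.0662 CPM in hAPOE4 male 1 and 0.049 to 0.258 CPM in the other groups. Nlrp5, a component of the subcortical complex of the oocyte, and Bmp15, another of its growth factors, were also higher in each of the 4 than in the other 16 mice, and the ranges of Zp2 and Ooep overlapped. Of the 12 markers 6 passed the filter on low counts, several of them mainly through these 4 mice, so no count of calls is given. All 12 together summed to 56.8 to 113 CPM in the 4 mice, and a large part came from markers that did not pass. Whether RNA of other samples entered these 4 libraries was not tested, and the values of A430010J10Rik in hAPOE4 males, including the difference of 3.17, are to be read with that limit. With the score of the 6 markers as a covariate, an alternative chosen after the data were seen, the difference of A430010J10Rik between hAPOE4 females and males was -1.44. The genotype difference in males was then 0.03, and in females it was -3.05. The score was 1.72 to 2.54 in the 4 mice and -1.02 to -0.05 in the other 16, so it nearly marked these 4 mice. A fall in males was thus largely set in advance, and this fit cannot show what part oocyte RNA had.

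The oocyte markers did not follow A430010J10Rik between the groups of females. The hAPOE3 females, at 16.2 to 57.7 CPM of A430010J10Rik, had summed oocyte markers of 2.43 to 3.51 CPM, and the hAPOE4 females, at 3.80 to 6.71 CPM, had 2.53 to 4.22 CPM. Of the hAPOE3 males, mouse 3 had the most A430010J10Rik, 23.2 CPM, and 2.52 CPM of markers. Mouse 5 had the least, 6.41 CPM, and 3.77 CPM of markers. Within groups the correlation of A430010J10Rik with the oocyte score was 0.80 over 20 mice. It was -0.01 over the 19 mice without hAPOE4 male 1, which include the 4 hAPOE4 males with high markers.

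The 5 genes most like A430010J10Rik within groups were AW822252 on chromosome X, Gm29325 and Gm19087 on chromosome 1, Vmn1r13 on chromosome 6 and Gm43972 on chromosome 5. Their correlations were 0.98, 0.97, 0.95, 0.95 and 0.94, and without hAPOE4 male 1 they were 0.90, 0.87, 0.79, 0.81 and 0.77. AW822252 averaged 10.1 CPM in hAPOE3 males, 55.9 CPM in hAPOE4 males, 20.9 CPM in hAPOE3 females and 6.55 CPM in hAPOE4 females, the same order of groups as A430010J10Rik from high to low. Gm43972 averaged 8.90, 38.7, 19.9 and 2.91 CPM in the same groups. Of the 4405 different 31-base words in the transcripts of A430010J10Rik, AW822252 shared 3, Gm29325, Vmn1r13 and Gm19087 shared 2 each and Gm43972 shared 1. In all 2104 other genes shared at least 1 of these words, and Rwdd2b, with 55, and Fkbp11, with 48, were among those that shared the most. The 5 least like it, Anks6, Eif2d, Gm26575, 9030624G23Rik and Yrdc, ran from -0.67 to -0.61, and none was among the lowest 5 without hAPOE4 male 1.

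The annotation of A430010J10Rik holds transcripts of unequal length. A430010J10Rik-201, of 408 bases, and A430010J10Rik-204, of 623 bases, end before its last exon, and the others reach that exon by different routes. The spliced transcript, A430010J10Rik-202, has 6 exons and 2041 bases, and A430010J10Rik-203 is a single exon of 3187 bases that begins within the last intron of the other and runs on into its last exon. The 60 bases around the start of that exon, at chr6:67166995, are printed for both, because a read across this point belongs to 1 of them. They read 5′ to 3′ on the plus strand of GRCm38 from the GENCODE M21 transcripts, and capitals mark the first 30 bases of the last exon, which both share.
A430010J10Rik-202: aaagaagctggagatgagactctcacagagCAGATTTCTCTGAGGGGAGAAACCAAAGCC
A430010J10Rik-203: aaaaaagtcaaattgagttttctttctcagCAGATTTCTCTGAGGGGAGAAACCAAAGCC

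The deposited tables gave a second measure of these transcripts. Dividing each estimated count by its normalized count, and by the median of that ratio over genes, left a factor for each gene and mouse. Its log2 averaged 0 over the 20 mice for every gene, which is the form of the transcript-length factors that DESeq2 takes from tximport. The sources used here do not state this step for the table. Of such factors, a higher one goes with a longer average transcript. The average is over all annotated transcripts of a gene, and which of them differed was not tested. The log2 factor of A430010J10Rik was 0.29, 0.29, 0.31 and 0.28 in hAPOE4 males 2 to 5 and -0.25 in hAPOE4 male 1. It was 0.25, 0.27, 0.06, 0.06 and 0.24 in hAPOE3 females. It was -0.06, -0.24, -0.38, -0.52 and -0.10 in hAPOE4 females, and -0.13, 0.26, 0.01, 0.08 and -0.73 in hAPOE3 males. The 4 mice with the most A430010J10Rik had the highest factors, with a correlation of 0.63 within groups over 20 mice and 0.48 without hAPOE4 male 1.

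All hAPOE4 females had a lower factor of A430010J10Rik than all hAPOE3 females, with a log2 difference of -0.435 (standard error 0.155). The share of all genes whose factors separated in this direction is not given, so the separation is a description. The exact two-sided permutation test gave p = 0.00794, the smallest that 5 against 5 mice allow, and p = 0.0953 after Benjamini-Hochberg adjustment over 12 such tests. The limma adjusted p over all genes was 0.172, at a background of 0.393% of genes called. Between hAPOE4 females and males the log2 difference was -0.442 (exact permutation p = 0.0317, adjusted p = 0.19 over the 12 tests), and the limma adjusted p was 0.388 at a background of 0.969%. Neither passed after adjustment. The gene was chosen by its level in these same mice, and its factor correlated with that level at 0.63 within groups. These tests are therefore not independent of the choice. Without hAPOE4 male 1 the difference in hAPOE4 mice was -0.55. The factor of Dnah6 ran from -0.024 to 0.014 and that of Anxa4 from -0.087 to 0.080 over the 20 mice, and their smallest exact permutation p values were 0.159 and 0.357.

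**Figure D4:**
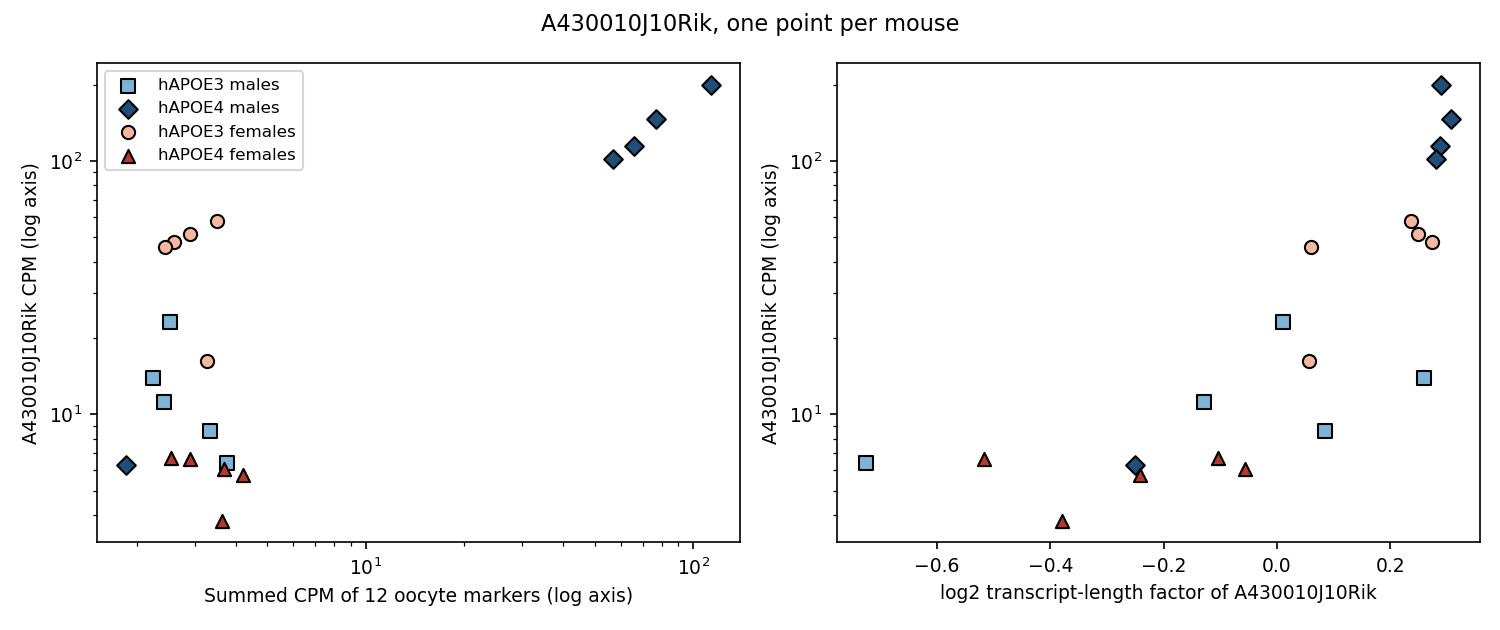
CPM of A430010J10Rik, on a logarithmic vertical axis, against the summed CPM of 12 oocyte markers (logarithmic axis) and against its own log2 transcript-length factor; each point is 1 of 20 mice. The 4 hAPOE4 males with 101.45 to 199.6 CPM have 56.8 to 113 CPM of oocyte markers and factors of 0.28 to 0.31, while hAPOE4 male 1 lies at 6.29 CPM, 1.85 CPM and -0.25.

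The question of whether neighbouring genes moved with the 3 genes was put to the interval from 67 to 87 Mb. It held 591 annotated genes, of which 262 were in the count table. Beside the 3 chosen genes, 162 were tested. In males 2 of the 162 were called, both lower in hAPOE4, which is 1.23% beside 0.621% of all genes. In females 3 of 162 were called, 2 higher and 1 lower, which is 1.85% beside 0.667%. The median log2 fold change over the 162 genes was -0.039 in males and 0.012 in females, beside 0.002 and 0.001 over all genes.

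Nat8f5, of a family of N-acetyltransferase 8 related enzymes, fell in both sexes, with log2 differences of -2.57 in males and -2.16 in females (adjusted p by edgeR, 0.00205 and 0.0114). Its levels were 0.723 to 2.03 CPM in hAPOE3 males and 0.154 to 0.341 CPM in hAPOE4 males. In females they were 1.20 to 1.84 CPM in hAPOE3 mice and 0.0717 to 0.719 CPM in hAPOE4 mice, so that neither sex overlapped. Nat8f7, a close relative on the same strand, moved the other way. It rose by 1.74 in females (edgeR adjusted p = 0.0309), and in males its log2 fold change was 1.43 (edgeR adjusted p = 0.11). Its levels were 0.134 to 1.13 CPM and 1.35 to 2.92 CPM in hAPOE3 and hAPOE4 males, and 0.533 to 0.903 CPM and 1.73 to 3.35 CPM in females. Nat8f5 and Nat8f7 belong to a multigene family, and how reads were shared among its copies was not tested.

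Asprv1, a skin aspartic protease gene at -0.17 Mb from the Anxa4 start, fell by 1.23 in males (edgeR adjusted p = 0.0358). In females its log2 fold change was -0.99 (edgeR adjusted p = 0.12), with 1.06 to 2.12 CPM in hAPOE3 and 0.562 to 1.19 CPM in hAPOE4 mice. Igkc, the constant region of the immunoglobulin kappa chain, rose by 3.73 in hAPOE4 females (edgeR adjusted p = 0.0436). Its levels in these 5 mice were 6.68, 5.52, 0.236, 0.305 and 0.143 CPM, with a median of 0.305 CPM. Those of hAPOE3 females ran from 0.097 to 0.399 CPM, so the groups overlapped and the rise lay in hAPOE4 females 1 and 2. In males its log2 fold change was -1.08 (edgeR adjusted p = 0.686), with 0.342 to 0.704 CPM in hAPOE3 and 0.119 to 0.317 CPM in hAPOE4 mice. The call of Igkc was not made by limma on the normalized counts (limma adjusted p = 0.276), nor was that of Nat8f7 in females (0.0974), and DESeq2 made both, as well as Nat8f7 in males and Asprv1 in females.

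**Figure D5:**
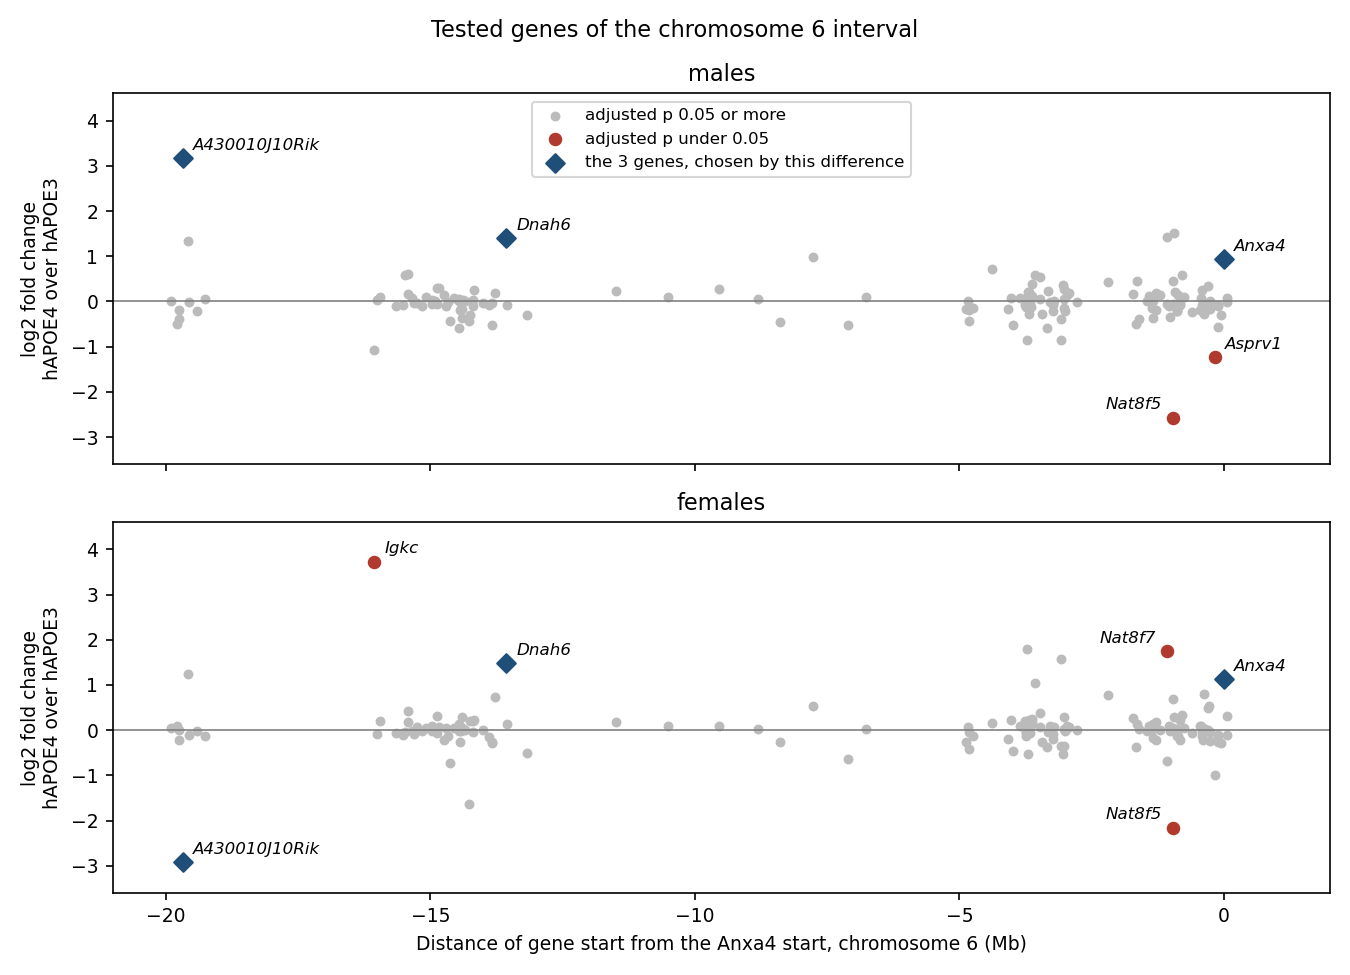
Log2 fold change of hAPOE4 over hAPOE3, on the vertical axis, in males and in females for the 3 chosen genes and the 162 other tested genes of the interval, placed by the distance of their start from the start of Anxa4 in Mb; grey points did not pass an edgeR adjusted p of 0.05, red points passed, and diamonds are the 3 chosen genes. The other genes passing were Nat8f5 and Asprv1 in males and Igkc, Nat8f7 and Nat8f5 in females, and A430010J10Rik is at 3.17 in males and -2.92 in females.

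The nearest tested neighbours on both sides of each gene did not pass the threshold by edgeR, DESeq2 or limma. They were 18 genes, beside edgeR calls for 0.621% of all genes in males and 0.667% in females. Of these 18 genes 5 in males and 1 in females had an unadjusted edgeR p under 0.05. The share of all genes at that unadjusted threshold is not given, so these counts are a description. Next to Anxa4, Gmcl1 lies 3.5 kb away and differed by -0.29 in each sex (standard error 0.08, edgeR adjusted p = 0.2 in males and 0.141 in females). Snrnp27 and Gm44214 on that side and 2610306M01Rik, Aak1 and Nfu1 on the other ran from -0.57 to 0.32. Next to Dnah6, Tmsb10, Gm26640 and Kcmf1 on one side and Suclg1, Gm31747 and Gm6210 on the other ran from -0.52 to 0.22. Next to A430010J10Rik, Gng12, Gadd45a and E230016M11Rik ran from -0.39 to 0.04, and Serbp1 and Il12rb2 from -0.22 to -0.02. Gm8566, a processed pseudogene 37.2 kb from A430010J10Rik, had log2 fold changes of 1.33 in males and 1.24 in females (edgeR adjusted p = 0.465 and 0.578) at means of 0.0502 to 0.31 CPM.

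Dnah6 is overlapped at its 3′ end by an antisense gene, Gm20560, on the plus strand at chr6:73012043-73020360. Gm20560 averaged 0.552 CPM in hAPOE3 males, 0.626 CPM in hAPOE4 males, 0.721 CPM in hAPOE3 females and 1.20 CPM in hAPOE4 females. Its log2 fold change was 0.18 in males and 0.73 in females (edgeR adjusted p = 0.782 and 0.109). It shared 140 of the 13242 different 31-base words of Dnah6, and no other gene shared any. Whether the counting used strand is not given in the sources used here, so reads of the shared stretch cannot be assigned. Gm44036, which overlaps the 3′ end of Anxa4, averaged at most 0.149 CPM in any group and shared 48 of the 4503 words of Anxa4.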

How the data were processed

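The authors sequenced polyA-selected hippocampal RNA of 20 mice, quantified transcripts with Salmon 0.91 and summed them to genes with tximport. They deposited a table of estimated counts, all whole numbers, and a table of counts normalized by DESeq2, whose values are a scaled read signal. Each normalized count was divided by a factor whose log2 averaged 0 over the 20 mice for every gene, to within 2.84e-07. The 31-base word counts and gene positions used GENCODE M21 (GRCm38), in which 30992 of 33119 gene symbols had a position. The members and lists were chosen with earlier results of these data known.

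The estimated counts were tested with edgeR 4.0.16 (quasi-likelihood test, TMM, filterByExpr by group, R 4.3.3) over all 4 groups, which share 1 estimate of the spread, with Benjamini-Hochberg adjustment over 21724 genes and a threshold of 0.05. Intervals are the estimate ± 1.96 standard errors. Length factors were tested with limma 3.58.1 over 22395 genes with a count in every mouse, and exact permutation tests were run for the 3 genes. CPM used TMM library sizes, and log2 CPM a prior count of 2. Labels name each sample as a separate mouse. Alternatives included DESeq2 1.42.0. The scripts were tested on simulated data.

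Named genes were the 3 members, list genes named in a count, the 3 nearest tested genes on each side of each member, called genes of the interval, and the 5 genes most and least correlated with each member over mice after group means were subtracted, among genes with a mean log2 CPM above 0. Foxj1, Anxa5, Dnah11, Dnah7c, Wdr78, Ccdc39, Ccdc40, Anxa1, Anxa2, Anxa8, the oocyte genes, Rwdd2b and Fkbp11 were named after their values were seen.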

Additional observations from a re-analysis of the deposited data

Results flagged for a closer look

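A430010J10Rik gave 3 results that stood out. Its genotype difference had opposite signs in males and females, with a difference between the sexes of -6.09 on the log2 scale. Its CPM in hAPOE3 female 4, 16.2, lay far below the other 4 mice of the group, which measured 45.9 to 57.7. Its log2 transcript-length factor in hAPOE4 male 1, -0.251, lay far below the other 4 males of the group, which had 0.280 to 0.306. These last 2 mice were found by Dixon's criterion for 5 samples, in 24 group and measure pairs, and chance alone gives about 1 in 20. The 2 other genes had no such mouse.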

How the results depend on the processing

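Genotype differences of Dnah6, Anxa4 and A430010J10Rik kept their direction in every alternative and with every mouse left out. A430010J10Rik in males fell to 0.026 with the oocyte score, a score that nearly marks the hAPOE4 males with high oocyte markers. Genes called between sexes in hAPOE3, sexes in hAPOE4, interaction, and genotype in males numbered 9, 95, 40 and 135. DESeq2 gave 25, 250, 97 and 322, and 339 for genotype in females. Without the filter 189 genes were called between sexes in hAPOE4 and 221 by genotype in males. With CPM of at least 1 in 5 mice there were 47, 24 and 84 (sexes in hAPOE4, interaction, males). With only the 2 groups compared there were 32 (sexes in hAPOE4) and 45 (males), and 3 in the interval in males. With limma on normalized counts there were 47 and 16 (sexes in hAPOE4, interaction), and 3 in the interval in females. The choroid plexus score gave 14 for sexes in hAPOE3. The oocyte score gave 6, 1 and 16 (sexes in hAPOE4, interaction, males) and 1 in the interval in males; for A430010J10Rik it gave -1.44 between sexes in hAPOE4 and -3.08 for the interaction. The ependymal score turned the Dnah6 interaction to -0.031. Length-factor calls with at least 10 counts fell from 217 to 27 (sexes in hAPOE4) and from 276 to 70 (males). The causes were not tested.

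Leaving out 1 mouse gave 9 to 13 (sexes in hAPOE3), 70 to 275 (sexes in hAPOE4, highest without hAPOE4 male 1), 30 to 118 (interaction, highest without the same mouse), 99 to 288 (males, likewise) and 74 to 257 (females, highest without hAPOE3 female 1) calls, and 3 to 6 and 3 to 7 in the interval in males and females. Dnah6 ran from -0.091 to 0.541 between sexes in hAPOE3 and from -0.093 to 0.539 for the interaction. Anxa4 ran from 0.39 to 0.54 between sexes in hAPOE4. Length-factor calls ran from 1 to 2, 76 to 326, 0 to 2090 (interaction, highest without hAPOE4 female 5), 181 to 342 and 33 to 103. The factor ran from -0.0061 to 0.0034 (Dnah6) and -0.015 to 0.017 (Anxa4) between sexes in hAPOE3, and from -0.00031 to 0.0037 and -0.021 to 0.015 by genotype in females. The wider interval, 62 to 92 Mb, held 6 calls in each sex. No paired analysis was possible because no labels pair mice across groups.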
